A study of Mus musculus with 2 samples.

Results

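The immunoglobulin heavy chain isotype genes are the 8 constant region genes Ighm, Ighd, Ighg3, Ighg1, Ighg2b, Ighg2c, Ighe and Igha, taken by name from a count table of 38788 genes. They were followed in single blood cells of 11 wildtype C57BL/6 J mice, all male and untreated as far as the sources state. The blood was depleted of red blood cells, the cells of each mouse were sorted into a plate of their own, and RNA was read together with DNA methylation by scM&T-seq, of which the RNA read counts were used here. Mouse, age and cell type of each cell came from the cell table of the study, which lists 981 cells with RNA, 600 of them B-cells. The mice were 9.6 and 9.7 weeks old (called 10 weeks, n = 2 mice with 81 B-cells), 36.1 weeks old (n = 3 with 174), 77 to 77.4 weeks old (n = 3 with 150) and 99.1 to 101.1 weeks old (called the oldest mice, n = 3 with 195). The mouse was the replicate in every test. Blood shows circulating B-cells and seldom the plasma cells that stay in tissues.

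A B-cell builds its heavy chain from a rearranged variable region joined to a constant region, and the constant region sets the isotype. A naive B-cell makes IgM and IgD from 1 long transcript, which is spliced to the Ighm or the Ighd exons. After activation, class switch recombination deletes the DNA between the variable region and a downstream gene, so that the cell makes IgG, IgE or IgA in place of IgM. Switched cells are memory B-cells and plasma cells, and IgA is known above all from the gut and other mucosal surfaces.

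The 8 genes lie in 1 cluster on the minus strand of chromosome 12 (GRCm38), from Ighm (chr12:113418558-113422730) and Ighd (chr12:113406604-113416324) through Ighg3, Ighg1, Ighg2b, Ighg2c and Ighe to Igha (chr12:113254830-113260236), all annotated as IG_C_gene. A cell could be given an isotype only because reads tell the 8 genes apart, so the first 60 bases of their first constant exon are shown, from GENCODE M21. Capitals mark the 22 positions at which the 4 IgG genes differ among themselves, and Ighm, Ighd, Ighe and Igha have no capitals because they were not aligned to these.

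Ighm, chr12:113422671-113422730, minus strand: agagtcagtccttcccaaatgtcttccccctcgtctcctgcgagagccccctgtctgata
Ighd, chr12:113416265-113416324, minus strand: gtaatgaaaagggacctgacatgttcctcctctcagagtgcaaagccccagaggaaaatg
Ighg3, chr12:113361173-113361232, minus strand: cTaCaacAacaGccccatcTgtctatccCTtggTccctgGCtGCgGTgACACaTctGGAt
Ighg1, chr12:113330464-113330523, minus strand: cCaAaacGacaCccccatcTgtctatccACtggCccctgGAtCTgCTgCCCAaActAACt
Ighg2b, chr12:113307874-113307933, minus strand: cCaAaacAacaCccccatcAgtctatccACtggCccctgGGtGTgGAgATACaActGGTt
Ighg2c, chr12:113288873-113288932, minus strand: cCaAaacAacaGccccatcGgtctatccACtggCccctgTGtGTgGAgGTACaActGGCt
Ighe, chr12:113273189-113273248, minus strand: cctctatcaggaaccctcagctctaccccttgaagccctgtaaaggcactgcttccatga
Igha, chr12:113260177-113260236, minus strand: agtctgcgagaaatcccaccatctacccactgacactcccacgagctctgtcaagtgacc

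Of all windows of 75 bases in the transcripts of each gene, none was shared with another member for Ighm, Ighd, Ighg1, Ighe and Igha. For Ighg3, Ighg2b and Ighg2c, 0.574%, 0.768% and 0.480% of the windows were shared. Whether the counting used strand or kept reads with several matches was not stated.

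B-cells almost always carried IgM, usually IgD beside it, and hardly ever a switched isotype. At least 10 counts of Ighm were found in 594 of the 600 B-cells and of Ighd in 537. The same was true of Igha in 13 cells, Ighg2b in 4, Ighg3 in 3 and Ighg2c in 1. Ighg1 and Ighe, the constant genes of IgG1 and IgE, reached no more than 1 count in any B-cell. B-cells had 157049 to 1222914 counts in total (median 328496). The reads carry no molecular identifiers, so intervals and limits on counts given here cover counting error only. Intervals on shares of cells pool the cells of all mice and leave out the spread between mice. The study typed the cells from the same RNA, so the markers describe the label and do not test it: Cd79a of the B-cell receptor complex was detected in 593 of the 600 cells, Cd79b in 575 and the B-cell surface gene Ms4a1 in 566. The 8 T-cell markers were detected in 2 to 6 of the 600 cells each, the monocyte marker Csf1r in 29% and the 4 hemoglobin genes in 25.5 to 28%. No cell identifier was shared by plates, and 315 of 740 index barcodes were used on more than 1 plate.

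Each B-cell was given the isotype with the most counts, where that gene had at least 10. Ighm led in 505 cells (84.2%, exact binomial 95% interval 81.0 to 87.0%), Ighd in 94 (15.7%, 12.8 to 18.8%) and Igha in 1 (0.167%, 0.00422 to 0.925%). No B-cell was led by an IgG gene or by Ighe, which allows a share of up to 0.500% for each of these 5 genes, taking 3 counts as the limit that a count of 0 allows. No cell was left without an isotype. The 599 unswitched cells, led by Ighm or Ighd, fell into 532 with at least 10 counts of both, 62 with IgM only and 5 with IgD only.

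**Figure D1:**
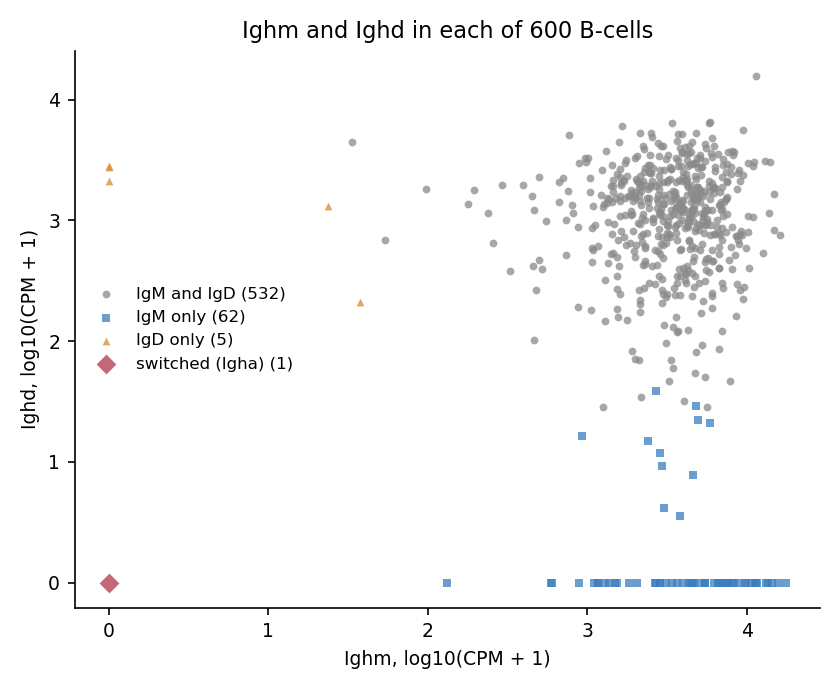
Each point is 1 of 600 B-cells, placed by its Ighm and Ighd level as log10(CPM + 1), CPM being counts scaled to 1000000 per cell, with shape and colour giving its class. Most cells sit at high levels of both genes, the 62 IgM-only cells lie along the bottom, the 5 IgD-only cells lie at the left, and the Igha cell is at 0 for both.

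Ighm was the more abundant of the pair. Its level over B-cells had quartiles of 2150 and 5478 CPM (counts scaled to a total of 1000000 per cell) around a median of 3688, and 4 cells were at 0. For Ighd, the quartiles were 402 and 1969 CPM around a median of 1104, and 52 cells were at 0. Per kilobase of exon, the mean over B-cells was 2211 CPM for Ighm and 733 CPM for Ighd. The levels hardly moved together. Over the 600 cells, centred within mouse, the Pearson r between log2(CPM + 1) of Ighm and of Ighd was -0.05 (a description, as cells share plates and depth).

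A single B-cell out of 600 was switched. It came from one of the oldest mice (mouse 1), carried 36590 counts of Igha, and had none of Ighm or Ighd. Igha made up 8.13% of its 449917 counts (exact binomial 95% interval 8.05 to 8.21%), and immunoglobulin genes together made up 32.7%, against a median of 2.92% and a highest value of 9.62% in the other 599 B-cells. Among the other 88 listed cells on its plate, 1 had Igha counts (46), and the same cell was the only one with Jchain counts (113). With 1 switched cell in 1 mouse, no test of switched against unswitched cells was possible, and its values below have no replicate check.

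Genes known from plasma cells were high in the Igha cell. Jchain, whose protein links IgA into dimers, had 60089 counts or 133556 CPM, and a mean of 0.735 CPM in the other 599 B-cells. Igkc, the kappa light chain constant gene, had 107880 CPM against a mean of 8763 CPM, and the leading variable genes were Igkv2-109 (42479 counts) and Ighv1-81 (14301 counts). Of the 12 genes of a plasma cell list, 9 were detected and 8 were above the mean of the other B-cells, whereas 11.2% of all 34086 genes found in any B-cell were detected in it and 6.2% were above that mean. Tnfrsf17, the survival receptor BCMA of plasma cells, had 725 CPM and at most 7.73 CPM in any other B-cell. Xbp1, the transcription factor of the secretory programme, had 898 CPM against a mean of 97.3 CPM, and Mzb1, a chaperone of antibody assembly, had 731 CPM against a mean of 58.9 CPM. Sdc1, the plasma cell marker CD138, had 176 CPM against a mean of 4.30 CPM. Other B-cells were higher for Xbp1 (29 cells), Mzb1 (3 cells) and Sdc1 (4 cells), and 2 of the 12 genes, Jchain and Tnfrsf17, were highest of the 600 cells in the Igha cell. Prdm1, the gene of the plasma cell regulator Blimp-1, was at 0, as were Fkbp11 and Creld2.

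Most genes of resting B-cells were not detected in the same cell, which also held for genes as a whole. Over all 34086 genes found in any B-cell, 11.2% were detected in it and 6.2% were above the mean of the other B-cells. Of 11 genes of naive follicular B-cells, 2 were detected, Foxp1 and Klf2, and none was above that mean. By these counts alone, the list was not set apart from all genes. Fcer2a, Cr2 and Ltb were at 0, as was Ccr7, which serves homing to lymph nodes. Many other B-cells were at 0 as well: Ltb was detected in 88.8% of them, Fcer2a in 72.8%, Ccr7 in 55.3%, Cr2 in 45.1%, Cxcr5 in 23.0% and Il4ra in 19.2%. Ms4a1 and Pax5, which plasma cells are known to lower, were also at 0, and Cd79a and Cd79b were at 691 and 680 CPM against means of 3064 and 2799 CPM. Of 14 memory genes, 6 were detected and 5 were above the mean, among them Ahnak at 1749 CPM against 270 CPM. Of 10 genes of marginal zone and B1 cells, 4 were above the mean, among them Spn, which encodes CD43, at 502 CPM against 2.75 CPM. The 8 T-cell, 3 neutrophil, 4 red blood cell and 3 platelet markers were at 0. Of the NK markers, Gzma was at 116 CPM, and Ncr1 and Klrb1c were at 0. Of the monocyte markers, Ly6c2, also known from plasma cells, was at 1305 CPM, Csf1r was at 2.22 CPM and Lyz2 was at 0. Eaf2, an elongation factor partner listed with heavy chain RNA processing, was at 1580 CPM, the highest of the 600 cells, and Ell2, which favours the secreted heavy chain, was at 153 CPM against a mean of 64.3 CPM.

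**Figure D2:**
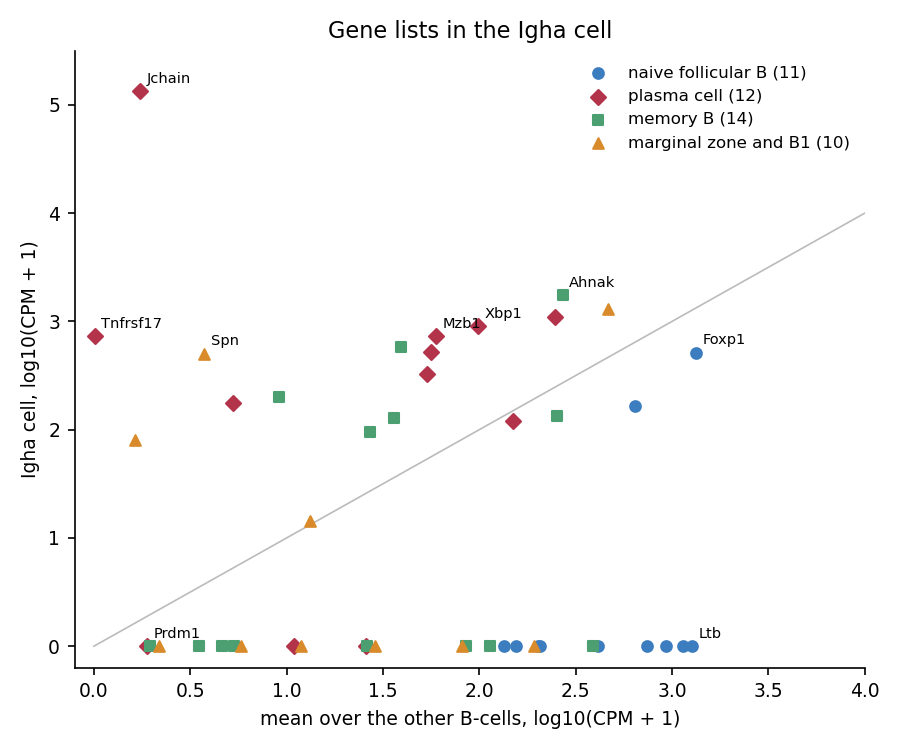
Each point is a gene of 1 of 4 lists, with its mean over the other 599 B-cells on the horizontal axis and its level in the Igha cell on the vertical axis, both as log10(CPM + 1), and the line marks equal levels. Plasma cell genes such as Jchain and Tnfrsf17 lie far above the line, and 9 of 11 naive follicular genes lie at 0. Of all genes found in any B-cell, 11.2% were detected in this cell.

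Downstream isotypes also appeared as a minor part of unswitched cells. Of the 599 unswitched cells, 18 (3.01%), from 9 mice, held at least 10 counts of a downstream gene, 15 of them with IgM and IgD and 3 with IgM only. Igha was the most frequent with 12 cells and 46 to 484 counts (median 174). Ighg2b was found in 4 cells (22 to 1254 counts), Ighg3 in 3 (289 to 330) and Ighg2c in 1 (142). Downstream genes made up 0.884 to 37.9% of the heavy chain counts of these cells, with a median of 7.32%. The largest share was in a cell of mouse 21 (77 weeks) with 1551 counts of Ighm, 508 of Ighd and 1254 of Ighg2b. In 2 cells there were a pair of downstream genes, 776 counts of Ighg2b with 476 of Igha in mouse 3 and 290 of Ighg3 with 182 of Igha in mouse 14. Jchain reached 10 counts in 1 of the 18, the cell of mouse 1 on the plate of the Igha cell, and was at 0 in 10 of the 12 cells with Igha. Their median total, 322738 counts, was close to the 329375 of the other B-cells. By age, they were 3 of 81 B-cells at 10 weeks, 7 of 174 at 36 weeks, 6 of 150 at 77 weeks and 2 of 195 in the oldest mice. Whether these reads came from the cell itself or from another cell was not tested.

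The 5 IgD-only cells came from 4 mice, 1 of each age. They held 52 to 1105 counts of Ighd, and 3 of them had no Ighm count. All 5 had more kappa than lambda light chain counts. The shares of cells led by kappa were 82.1% of 532 cells with IgM and IgD and 80.6% of 62 IgM-only cells.

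Neither Ighm nor Ighd passed a test of its level in B-cells against age. The mean Ighm level per mouse was 3890 and 5320 CPM at 10 weeks, 4093, 4440 and 4625 CPM at 36 weeks, 3857, 3966 and 4361 CPM at 77 weeks and 3425, 3711 and 4571 CPM in the oldest mice. The means over mice, 4605 ± 1012 (SD, n = 2), 4386 ± 270 (SD, n = 3), 4061 ± 266 (SD, n = 3) and 3903 ± 596 CPM (SD, n = 3), were each lower than the one before, but the values of neighbouring ages overlapped. In edgeR's quasi-likelihood test across all genes, on counts summed per mouse, the log2 slope of Ighm was -0.038 ± 0.018 (SE) per 10 weeks (edgeR, Benjamini-Hochberg adjusted p = 0.541). Its unadjusted p by edgeR was 0.0512, and under 0.05 in 7 of 18 alternatives. Without mouse 24 of 10 weeks, the mouse with the highest level, the log2 slope was -0.020 (edgeR adjusted p = 0.787). Within lane 2, a number read from the read file names whose meaning is uncertain, the log2 slope was -0.020 (edgeR adjusted p = 0.767). Lane 2 held the 3 oldest mice and 4 younger ones, among them mouse 14 with 39 of its 54 B-cells. For the oldest against the 8 younger mice the log2 difference of Ighm was -0.24 ± 0.14 (SE, edgeR adjusted p = 0.626), and within lane 2 it was -0.16. Without mouse 1 it was -0.15 (edgeR adjusted p = 0.929).

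Ighd showed no order with age. Its mean level per mouse was 922 and 1824 CPM at 10 weeks, 1130, 1375 and 1818 CPM at 36 weeks, 967, 1334 and 1500 CPM at 77 weeks and 1389, 1427 and 1451 CPM in the oldest mice. The 3 oldest mice lay inside the range of the younger ones. The log2 difference of the oldest against the younger mice was 0.04 ± 0.21 (SE, edgeR adjusted p = 0.960) and the log2 slope was -0.008 ± 0.027 (SE) per 10 weeks (edgeR adjusted p = 0.950), and both changed sign under 3 or more alternatives. Of the members, Ighm and Ighd passed the filter on low genes and the other 6 did not, being detected in fewer than 25% of B-cells. Of the 1658 genes tested, 0% passed the threshold of 0.1 in the slope test and 0% in the test of the oldest against younger mice. edgeR gave 148 and 158 genes with an unadjusted p under 0.05, and DESeq2 called 18 and 61, neither member among them. The mean level of Igha per mouse was 0 to 42.9 CPM in the 8 younger mice and 0.778, 12.8 and 1045 CPM in the oldest, the last being the mouse of the Igha cell.

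**Figure D3:**
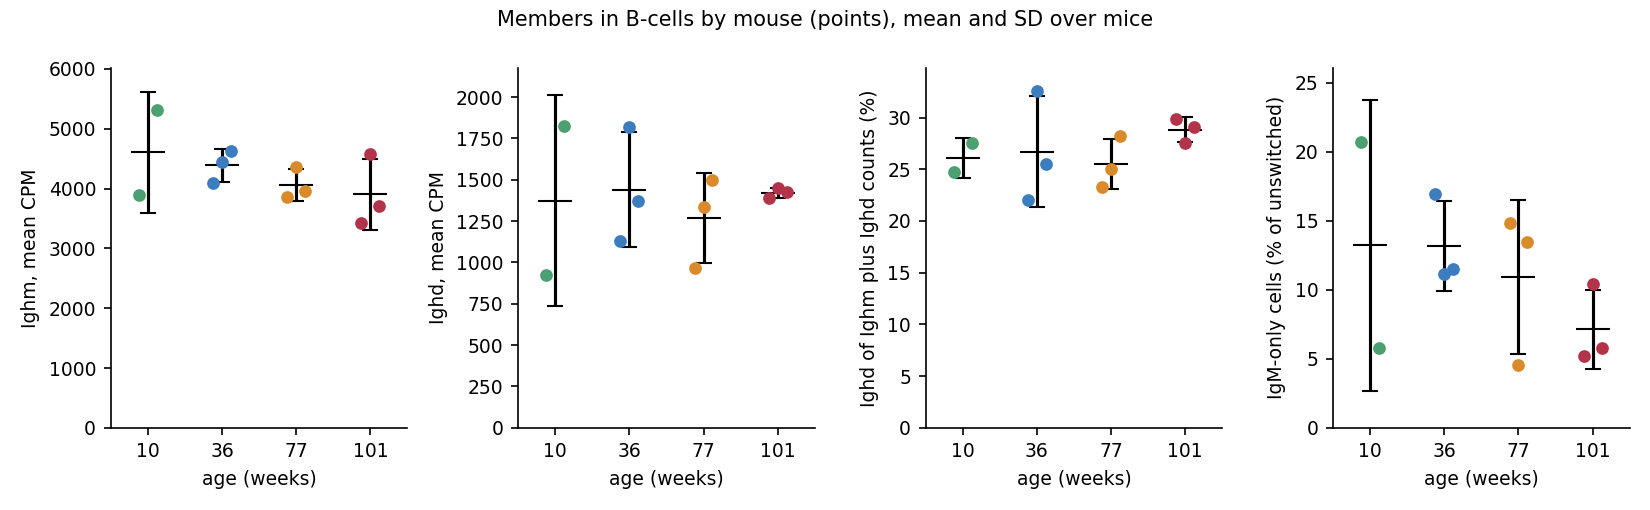
Points are mice, grouped by age in weeks, and bars give the mean and SD over mice of the Ighm level, the Ighd level, the Ighd share of Ighm plus Ighd counts and the share of IgM-only cells in B-cells. The oldest mice (last position) lie within the range of the younger ones in 3 panels, and for Ighm 2 of them, at 3425 and 3711 CPM, lie below it.

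The balance of IgD to IgM passed no test against age over the 11 mice. Ighd made up a mean of 24.8 and 27.5% of Ighm plus Ighd counts per unswitched cell in the mice of 10 weeks, 22.0, 25.5 and 32.6% at 36 weeks, 23.3, 25.04 and 28.2% at 77 weeks and 27.5, 29.1 and 29.9% in the oldest mice. The mean was 28.8% ± 1.21 (SD, n = 3) in the oldest and 26.1% ± 3.30 (SD, n = 8) in younger mice (two-sided exact permutation test, p = 0.206, adjusted p = 0.273 over the measures of the family that could be tested). The smallest p that 3 mice against 8 allow is 0.00606. The correlation with age was r = 0.23 (permutation p = 0.489) and rho = 0.37 (permutation p = 0.257), each with an adjusted p of 0.273 or more, and r = 0.22 (exact permutation p = 0.568) without both mice of 10 weeks. Within lane 2 (3 mice against 4, smallest possible p = 0.0286), the difference was 2.59 percentage points (exact permutation p = 0.543) and r was 0.19. Mouse 14, at 32.6%, bore on the test: without it the difference was 3.64 percentage points (exact permutation p = 0.0417, unadjusted).

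IgM-only cells were 20.7 and 5.77% of unswitched cells in the mice of 10 weeks, 11.1, 11.5 and 16.9% at 36 weeks, 4.55, 13.5 and 14.8% at 77 weeks and 5.19, 5.80 and 10.4% in the oldest mice. The oldest mice were at the lower end, as were mice 22 and 24. The mean was 7.14% ± 2.86 (SD, n = 3) in the oldest and 12.4% ± 5.41 (SD, n = 8) in younger mice (two-sided exact permutation test, p = 0.145, adjusted p = 0.273). With age, Pearson's r was -0.45 (permutation p = 0.161, adjusted to 0.483). Spearman's rho was -0.43 (permutation p = 0.184, adjusted to 0.273), and r was -0.57 (exact permutation p = 0.116) without both mice of 10 weeks. Within lane 2, the shares were 7.14% and 15.7%, the difference was -8.54 percentage points (exact permutation p = 0.0857) and r was -0.80 (exact permutation p = 0.0381, unadjusted, 7 mice). The red blood cell contamination class of the cell table moved with this class: 50% of the IgM-only cells and 62.4% of the cells with IgM and IgD were in the class without contamination. In cells of that class alone the difference was -1.38 percentage points (exact permutation p = 0.673). The median total of B-cells was 339110 to 394207 counts in the oldest mice and 269220 to 338181 in the younger ones. After a draw of 150000 counts per cell, the difference was -4.50 percentage points (exact permutation p = 0.309). The switched share, 1 cell of mouse 1 (1.28% of its B-cells) and 0% in the other 10 mice, gave an exact permutation p of 0.273 (adjusted p = 0.273) and correlations of r = 0.38 (permutation p = 0.364) and rho = 0.46 (permutation p = 0.273) with age, both resting on that cell, and the share of cells without an isotype was 0% in every mouse. The 4 shares formed the family, of which 3 had values that differed between mice.

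Which other genes set IgM-only cells apart was asked by summing each class within a mouse, in the 10 mice with at least 3 cells of each. Of the 1916 genes tested without the 8 members, 6 were lower in IgM-only cells (0.313%) and none was higher, by edgeR with the mouse as a block at an adjusted p under 0.1. They were Fyco1, an adaptor of autophagosome transport, Usp53, a member of the ubiquitin protease family, Rad52, of DNA double-strand break repair, Zbtb38, a zinc finger protein that binds methylated DNA, Nfat5, the transcription factor of the osmotic stress response, and Slfn5, of the Schlafen family. The log2 differences ranged from -3.04 ± 0.56 (SE) for Rad52 to -6.02 ± 1.18 (SE) for Nfat5. That of Nfat5, at 18.4 ± 48.4 and 109 ± 49.5 CPM (SD, n = 10 mice), was -2.43 without the mouse as a block and -3.72 with a minimum of 50 counts, and was not called in either (edgeR adjusted p = 1.000 and 0.709). With that minimum the log2 difference of Slfn5 was -2.90, in place of -4.38 (edgeR adjusted p = 0.590). Fyco1 was at -2.97, in place of -4.42, and Zbtb38 at -3.42, in place of -4.15 (edgeR adjusted p = 0.596 and 0.563). Usp53 and Rad52 were still called, at -3.71 and -2.96 (edgeR adjusted p = 0.0297 for each). Usp53 was at 1.74 ± 1.07 CPM in IgM-only cells and 45.5 ± 36.1 CPM in cells with IgM and IgD (SD, n = 10 mice; edgeR adjusted p = 0.0323), and Fyco1 at 2.27 ± 4.07 and 27.4 ± 16.5 CPM (SD, n = 10; edgeR adjusted p = 0.0323). Slfn5 was at 5.39 ± 5.86 and 79.5 ± 50.5 CPM (SD, n = 10; edgeR adjusted p = 0.0954). Each of the 6 genes was lower in IgM-only cells in 10 of 10 mice. The genes were picked from these same sums, so this count is no further support.

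High counts of these 6 genes were found in few cells, and the classes were of very unequal size. The sums came from 3 to 10 cells with IgM only and from 23 to 73 cells with IgM and IgD per mouse. At least 10 counts of Usp53 were found in 1 of 60 IgM-only cells and 31 of 490 cells with IgM and IgD, of Rad52 in 0 of 60 and 16 of 490, of Zbtb38 in 1 and 45, and of Nfat5 in 5 and 81. The share of cells with any count differed less: it was 41.7% and 35.5% for Usp53, the other direction, 28.3% and 31.4% for Fyco1 and 53.3% and 73.5% for Slfn5. The median log2 difference of all 1916 genes was -0.50. Without mouse 1 or without mouse 2 no gene passed (edgeR), with 0 to 7 genes over the mice left out, and DESeq2 called 250. Over the mice left out, the log2 differences were -4.79 to -4.14 for Fyco1, -4.58 to -4.01 for Usp53 and -3.32 to -2.85 for Rad52. They were -4.50 to -3.84 for Zbtb38, -6.52 to -5.64 for Nfat5 (no value without mouse 1) and -4.74 to -4.04 for Slfn5. No gene passed in cells of the class without red blood cell contamination, and 1 passed after a draw of 150000 counts per cell. In the cells without contamination the log2 differences of the 6 genes were still -3.15 (Zbtb38) to -6.40 (Nfat5). The hemoglobin gene Hba-a1 was detected in 38.7% of the IgM-only cells and 26.7% of the cells with both. Median depth was 322024 counts in IgM-only cells and 330550 in cells with both.

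No gene of the B-cell subset lists passed in the IgM-only comparison. Among 9 naive follicular genes tested the median log2 difference was -0.44, near that of all genes. Fcer2a, the low-affinity IgE receptor CD23 of follicular cells, was at 529 ± 373 CPM in IgM-only cells and 941 ± 159 CPM in cells with both (SD, n = 10 mice; log2 difference -1.24 ± 0.75 SE, edgeR adjusted p = 0.797). Zfp318, which is known to let transcription and splicing reach the Ighd exons, was at 202 ± 163 and 316 ± 134 CPM (SD, n = 10 mice; log2 difference -1.38 ± 1.03 SE, edgeR adjusted p = 0.813), and was lower in 7 of 10 mice. Fcer2a was lower in 8 of 10 mice and had at least 10 counts in 40% of IgM-only cells and 71.8% of cells with both, and neither gene passed the test. Of the lists of memory, plasma cell, marginal zone and B1, and transitional cells, 4, 4, 3 and 2 genes were tested and none passed, with medians of -0.12, -0.50, 0.34 and 0.39. The germinal centre and age-associated lists had 1 tested gene each, Bcl6 and Apoe, and neither passed. The 7 receptor partners tested had a median of 0.14, among them Cd79b with a log2 difference of 0.34 ± 0.12 (SE, edgeR adjusted p = 0.577).

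In the tests of age, the same lists gave no called gene either. In the comparison of the oldest with younger mice, the log2 differences of the receptor partners had a median of -0.48, against -0.05 for all genes. Iglc2 and Iglc3, lambda light chain constant genes, were at -0.61 ± 0.14 and -0.55 ± 0.14 (SE, edgeR adjusted p = 0.156 and 0.163), Cd79b at -0.48 ± 0.12 (edgeR adjusted p = 0.156) and Igkc at -0.08 ± 0.13 (edgeR adjusted p = 0.888). Cr2, the complement receptor CD21, was at -0.84 (edgeR adjusted p = 0.156), within a median of -0.20 for the 9 naive follicular genes. Vim and Ahnak of the memory list were at 0.99 and 1.46 (edgeR adjusted p = 0.197 and 0.209), while Cd80 and Cd38 were at -1.69 and -0.28 (edgeR adjusted p = 0.321 and 0.802), with a median of 0.36 for the 4. Zfp318 was at 0.73 ± 0.25 (SE, edgeR adjusted p = 0.276), and Fcmr, the IgM receptor, at -0.40 ± 0.23 (SE, edgeR adjusted p = 0.625). Without mouse 24, a mouse of 10 weeks, 6 genes passed. The medians of the 3 plasma cell, 3 marginal zone and B1, and 2 transitional genes were -0.42, -0.26 and -0.55, and no germinal centre or age-associated gene reached the filter.

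Across B-cells, the genes most like Ighd were led by antigen presentation genes, and those most like Ighm were not. Of 2771 genes compared over 600 B-cells, centred within mouse, those most like Ighd were H2-Eb1 (r = 0.31), H2-Ab1 (r = 0.29) and H2-Aa (r = 0.27), which encode MHC class II chains, then Fcer2a (r = 0.25) and the ribosomal gene Rps27 (r = 0.24). For Ighm, they were Dppa2 (r = 0.27), Cd52 (r = 0.17), Iglj1 (r = 0.17), Iglc1 (r = 0.16) and Cd79a (r = 0.15). The median r over all genes was 0.002 for Ighm and 0.004 for Ighd, and Ighm and Ighd had r of 0.05 and -0.08 with the total count of the cell. H2-Eb1 had r = -0.06 with Ighm, and Zfp318 had r = 0.17 with Ighd and -0.08 with Ighm. All these correlations are weak and descriptive.

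Ighm, but not the other members, was found in many cells that are not B-cells. The study typed cells from their own expression, by clusters on variable genes together with a reference of sorted blood cells, so differences between them are given without a test. At least 10 counts of Ighm were present in 162 of 329 T-cells (49.2%, exact binomial 95% interval 43.7 to 54.8%), and of Ighd in 4 (1.22%). The Ighm share per mouse ran from 29.7 to 71.0%, wider than this interval over pooled cells. By type, the share was 63.9% of 72 naive CD8+ T-cells, 61.5% of 13 regulatory T-cells, 50.6% of 85 naive CD4+ T-cells, 50% of 8 memory CD4+ T-cells, 47.1% of 17 monocytes, 44.3% of 106 memory CD8+ T-cells, 31.1% of 45 effector CD4+ T-cells and 4% of 25 NK cells. The intervals of neighbouring types in that order overlapped. The cells were pooled over mice whose ages differed in their mix of types, and the order did not hold at each age: at 10 weeks the share was 58.1% of 62 naive and 72.2% of 18 other T-cells. None of 3 neutrophils and 3 basophils had Ighm counts, and the 1 dendritic cell had 1074. Of the 378 cells of types other than B, 3 had a count of a downstream member and 0 had 10.

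The level of Ighm in these cells was lower than in B-cells, but not marginal. The mean over those mice that had 3 or more such cells was 4205 ± 527 CPM in B-cells (SD, n = 11 mice), 643 ± 405 in naive CD8+ T-cells (SD, n = 9), 511 ± 258 in naive CD4+ T-cells (SD, n = 8), 259 ± 155 in memory CD8+ T-cells (SD, n = 11), 223 ± 276 in effector CD4+ T-cells (SD, n = 9), and 18.8 ± 37.1 in NK cells (SD, n = 4). The values of the 4 T-cell types named here overlapped within their SD. The 162 T-cells with Ighm had a median of 324 Ighm counts, and B-cells with Ighm had 1205. Of the 162, 4 had at least 10 counts of Ighd, 0 of Igkc, 2 of Cd79a, 0 of Ms4a1 and 1 of any Ighv variable gene. Of the 594 B-cells with Ighm, 532 had Ighd, 577 Igkc, 588 Cd79a, 543 Ms4a1 and 569 an Ighv gene. Ighd made up 1.07% of the summed Ighm plus Ighd counts in these T-cells and 24.4% in the B-cells. So the T-cells with Ighm held few other B-cell transcripts.

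**Figure D4:**
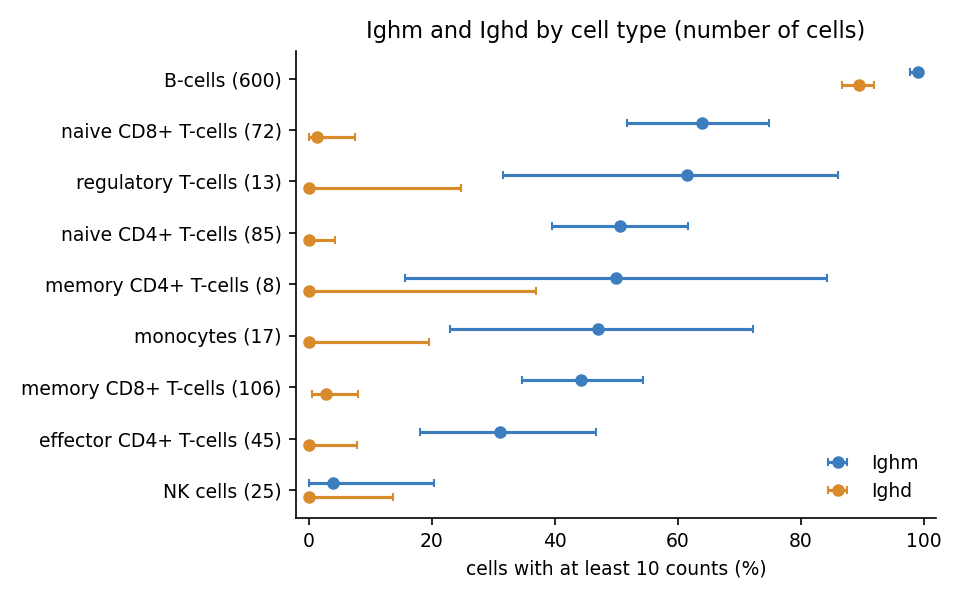
Points give the share of cells with at least 10 counts of Ighm or Ighd in each cell type with at least 8 cells, with exact binomial 95% intervals and the number of cells in brackets. Ighm is present in 31.1 to 63.9% of the cells of each T-cell type, and Ighd in at most 2.83%.

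The Ighm share of T-cells was lower in older mice. It was 55.1 and 71.0% at 10 weeks, 47.8, 53.6 and 58.6% at 36 weeks, 30.3, 44.7 and 63.6% at 77 weeks and 29.7, 38.9 and 40% in the oldest mice. The mean was 63.0% ± 11.2 (SD, n = 2), 53.3% ± 5.40 (SD, n = 3), 46.2% ± 16.7 (SD, n = 3) and 36.2% ± 5.64 (SD, n = 3). The mean Ighm level over T-cells was 628 ± 164, 539 ± 217, 378 ± 233 and 177 ± 47.0 CPM. The order of the means is a description, as this was noticed after the values were seen, and no test was made. Mouse 23 of 77 weeks lay among the oldest mice. Within lane 2, the means were 36.2% ± 5.64 (SD, n = 3) in the oldest and 56.1% ± 5.15 (SD, n = 4) in younger mice. The mix of T-cells also moved with age: among naive T-cells 36 of 62, 27 of 45, 20 of 41 and 6 of 9 cells had Ighm from the youngest to the oldest age, and among the other T-cells 13 of 18, 16 of 35, 28 of 63 and 16 of 56. The median total of T-cells was 361727, 403973, 418528 and 599022 counts at the 4 ages. The part of the mix and of depth in the lower share was not tested.

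**Figure D5:**
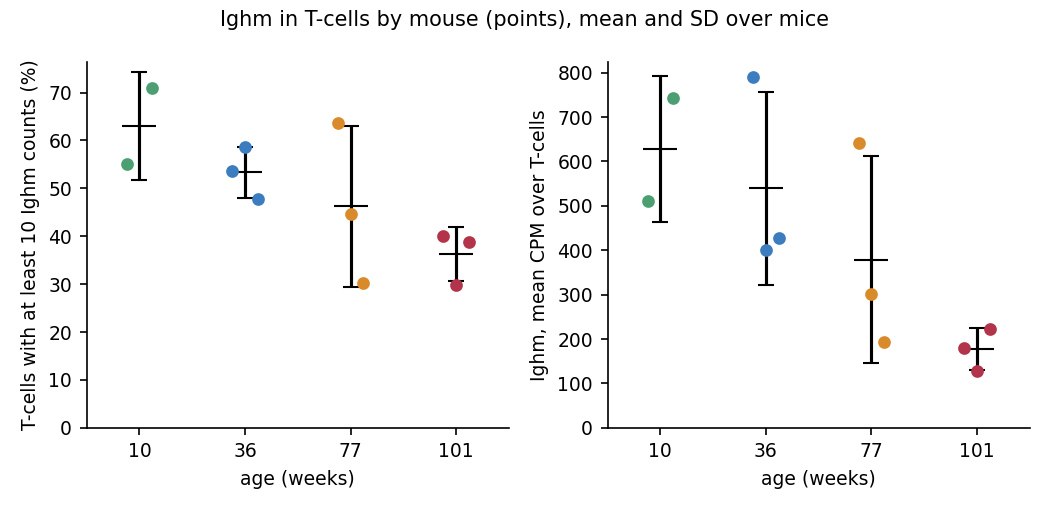
Points are mice, grouped by age in weeks, and bars give the mean and SD over mice, on the left for the share of T-cells with at least 10 Ighm counts and on the right for the mean Ighm level over T-cells. The 3 oldest mice lie at 29.7 to 40%, and the mice of 10 weeks at 55.1 and 71.0%.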

How the data were processed

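RNA of sorted blood cells (11 mice) came from scM&T-seq. Reads were trimmed with Trim Galore 0.6.7, mapped to GRCm38 with STAR and counted per Ensembl gene with featureCounts, and the raw counts were used as deposited by the authors, without normalization. All 38788 gene identifiers matched GENCODE M21. GEO labels give no ages, so mouse, age, cell type and red blood cell contamination class came from the cell table of the study (981 cells), by cell identifier, and 74 further cells were left out. The lane was read from read file names, which is uncertain.

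CPM are counts scaled to 1000000 per cell. An isotype needed 10 counts. Counts were summed per mouse (or mouse and class) and tested with edgeR 4.0.16 (TMM, robust quasi-likelihood, Benjamini-Hochberg adjusted p under 0.1) over protein-coding and immunoglobulin genes detected in 25% of the cells and in 5 cells at 2 ages. The SE was taken from the estimate and its F statistic. Per-mouse shares were tested by two-sided exact permutation, and correlations by permutation with 100000 resamples. The class test paired samples by a block for the mouse, since both classes came from the same animal.

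Named genes were the 8 members, the lists given, up to 10 genes in each direction past the threshold, and the 5 genes most like Ighm and Ighd. The members and lists were chosen with earlier results of these data known, and the T-cell values by age, the wells of cells with downstream genes and the genes picked for their r were added after values were seen. Alternatives were DESeq2 1.42.0, RLE size factors, no filter, other library sizes, a covariate, count minimums of 1 and 50, a draw of 150000 counts per cell, uncontaminated cells, lane 2 and each mouse left out. The tests were tested on simulated data. R 4.3.3, Python 3.11.15, scipy 1.17.1 and pandas 2.3.3 were used.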

Additional observations from a re-analysis of the deposited data

Results flagged for a closer look

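Heavy chain counts also lay in cells that the comparisons did not use. Of the 74 cells in the count table that the cell table does not list with RNA, 34 had at least 10 counts of Ighm, 24 of Ighd and 1 of Igha. That cell held 114 counts of Igha beside 197 of Ighm and 373 of Ighd, so it was led by Ighd. Its total of 84243 counts was below the minimum that the study set for keeping a cell. Among the 8 younger mice, neither the highest nor the lowest mouse passed Dixon's critical value of 0.526 for the Ighm and Ighd levels, the Ighd and IgM-only shares or the Ighm share of T-cells.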

How the results depend on the processing

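Settings were changed 1 at a time. The genes called in the age slope were 0, and 0 in all settings except DESeq2 with 18 (7 higher, 11 lower) and no filter beyond 1 count with 186 (138 higher, 48 lower). For the oldest against younger mice they were 0, but 61 by DESeq2 (19 higher, 42 lower) and 0 to 6 over mice left out, 6 without mouse 24. For IgM-only against IgM and IgD cells they were 6, but 250 by DESeq2 (16 higher, 234 lower), 4563 of 18077 with no filter (22 higher, 4541 lower), 2 with a minimum of 50 counts, 1 after the draw of 150000 counts and 0 in uncontaminated cells. They were 7 with RLE size factors, 7 without the replicate block, and 0 to 7 over mice left out, with 0 without mouse 1 or mouse 2, 2 without mouse 3 or mouse 23 and 3 without mouse 14 or mouse 15. The cause of these differences was not tested. The log2 slope of Ighd turned from -0.008 to 0.0099 with no filter and 0.023 in lane 2, was -0.069 in uncontaminated cells, and ran from -0.035 to 0.030 over mice left out (0.030 without mouse 24). Its log2 difference turned from 0.04 to -0.12 in uncontaminated cells and -0.26 with genes detected as a covariate, and ran from -0.025 to 0.15 over mice left out (-0.025 without mouse 12 and -0.02 without mouse 21). Ighm kept its sign in 18 of 18 alternatives of each test (slope -0.05 to -0.02, difference -0.54 with the covariate to -0.14 with no filter), with an adjusted p of at least 0.385 (slope) and 0.543 (difference) by edgeR or DESeq2.

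The Ighd share difference was 2.13 to 3.64 percentage points over mice left out, and without mouse 14 it was 3.64 (exact permutation p = 0.0417). The IgM-only difference was -6.86 to -4.02 over mice left out. The switched difference was 0 to 0.641, and 0 without mouse 1. With a minimum of 50 counts 1 cell had no isotype, a difference of -0.231 percentage points. No alternative of the switched against unswitched test was run, as 1 mouse held a switched cell. The 3 oldest mice were on lane 2, and rare isotypes are limited by 600 cells.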

Other observations

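Plate positions were compared for the 18 unswitched cells with a downstream isotype. Of the 10 B-cells sorted into well B04 of the 11 plates, 4 held at least 10 counts of a downstream gene, from mice 3, 14, 23 and 24, and 2 other wells held 2 such cells each and 10 wells held 1. This was noticed after the values were seen and was not tested. By lane, 8 of the 18 were on lane 1 and 10 on lane 2.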
